A study of Mus musculus with 12 samples.

Results

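The genes described here build the lysosome, the acidic compartment in which cells break down proteins, lipids and sugars, in the kidney of diabetic mice. They are 47 of the 57490 genes counted, taken by gene symbol, and each symbol occurred once in the table. By role they are 20 hydrolases and their activators, 8 membrane proteins, 16 subunits of the vacuolar proton pump (V-ATPase) and 3 transcription factors known as regulators of many lysosomal genes. The hydrolases and activators were Ctsa, Ctsb, Ctsd, Ctsh, Ctsl, Ctss, Ctsz, Lgmn, Hexa, Gla, Gaa, Glb1, Neu1, Asah1, Smpd1, Lipa, Psap, Gm2a, Tpp1 and Ppt1. The membrane proteins were Lamp1, Lamp2, Scarb2, Cd63, Mcoln1, Ctns, Cln3 and Laptm4a. The pump subunits were Atp6v0a1, Atp6v0a4, Atp6v0b, Atp6v0c, Atp6v0d1, Atp6v0d2, Atp6v0e, Atp6v1a, Atp6v1b1, Atp6v1b2, Atp6v1c1, Atp6v1d, Atp6v1e1, Atp6v1f, Atp6v1g1 and Atp6v1h, and the regulators were Tfeb, Tfe3 and Mitf. All 47 passed the filter on low counts, and the lowest count of any of them in a mouse was 69, for Gla.

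The study asked how kidney RNA differs between diabetic and non-diabetic mice, and between diabetic mice with and without Yiqi Huoxue Yangyin Decoction (YHY), a herbal preparation. Enriched mRNA from 12 male mice aged 13 weeks was sequenced, 4 in each of 3 groups. Kidney is the tissue named in the labels, whereas the series text names renal cortex. Ctrl mice were db/m mice, heterozygous for the Leprdb mutation of the leptin receptor on the BKS background, and Model mice were db/db mice of the strain BKS.Cg-Dock7m +/+ Leprdb/JNju, which also lists the coat-colour allele Dock7m. Both were gavaged with purified water. YHY mice were db/db mice given the water extract at 6.24 g/mL by daily gavage for 4 weeks. All mice were bought at the age of 8 weeks. Mice of the db/db genotype lack a working leptin receptor and are obese as well as diabetic, so obesity, diabetes and the loss of leptin signalling cannot be told apart. No db/m mice received YHY. Library totals ran from 24415658 to 33276634 counts.

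Lysosomal hydrolases are made in the endoplasmic reticulum, sorted to lysosomes largely by mannose 6-phosphate receptors and work at acid pH, which the V-ATPase maintains by pumping protons at the cost of ATP. TFEB, TFE3 and MITF bind a shared promoter element and switch on many lysosomal genes when they enter the nucleus, a step controlled largely by phosphorylation. In the kidney, proximal tubule cells degrade filtered proteins in abundant lysosomes, while intercalated cells of the collecting duct place a V-ATPase built from their own subunit isoforms in the plasma membrane to secrete acid.

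Levels of genes are given as FPKM, counts scaled for gene length, as deposited, and for library size by the TMM method, which lines up libraries on the bulk of their genes. The summed FPKM of the 20 hydrolases was 1229.8, 1451, 1278 and 1425 FPKM in Ctrl 1 to 4, 959.9, 758, 854 and 729 in Model 1 to 4 and 560.1, 659, 517 and 733 in YHY 1 to 4. Every Model and YHY mouse lay below every Ctrl mouse, and Model and YHY overlapped, since YHY 4 lay above Model 4. For the 8 membrane proteins the sum was 715, 764, 729 and 696 FPKM in Ctrl 1 to 4, 573, 384, 433 and 293 in Model 1 to 4 and 329, 281, 329 and 439 in YHY 1 to 4, again with both db/db groups below Ctrl and overlapping each other. The pump subunits summed to 702, 862, 738 and 714 FPKM in Ctrl 1 to 4, 747, 491, 587 and 436 in Model 1 to 4 and 405, 395, 438 and 522 in YHY 1 to 4. Here Model 1 lay within the Ctrl range, whereas the other Model mice and all YHY mice lay below it. For Ctrl, Model and YHY the means ± SD (n = 4) of the pump sum were 754 ± 73.4, 565 ± 137 and 439.9 ± 57.7. The regulators summed to only 7.49, 7.29, 7.37 and 7.51 FPKM in Ctrl 1 to 4, 8.71, 9.10, 10.3 and 9.04 in Model 1 to 4 and 9.72, 8.78, 10.7 and 9.43 in YHY 1 to 4, with all db/db mice above all Ctrl mice at this scaling. These sums are dominated by abundant genes: Psap alone made up 27.4 to 36.5% of the hydrolase sum in Ctrl, and 16.2 to 23.8% in Model.

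**Figure D1:**
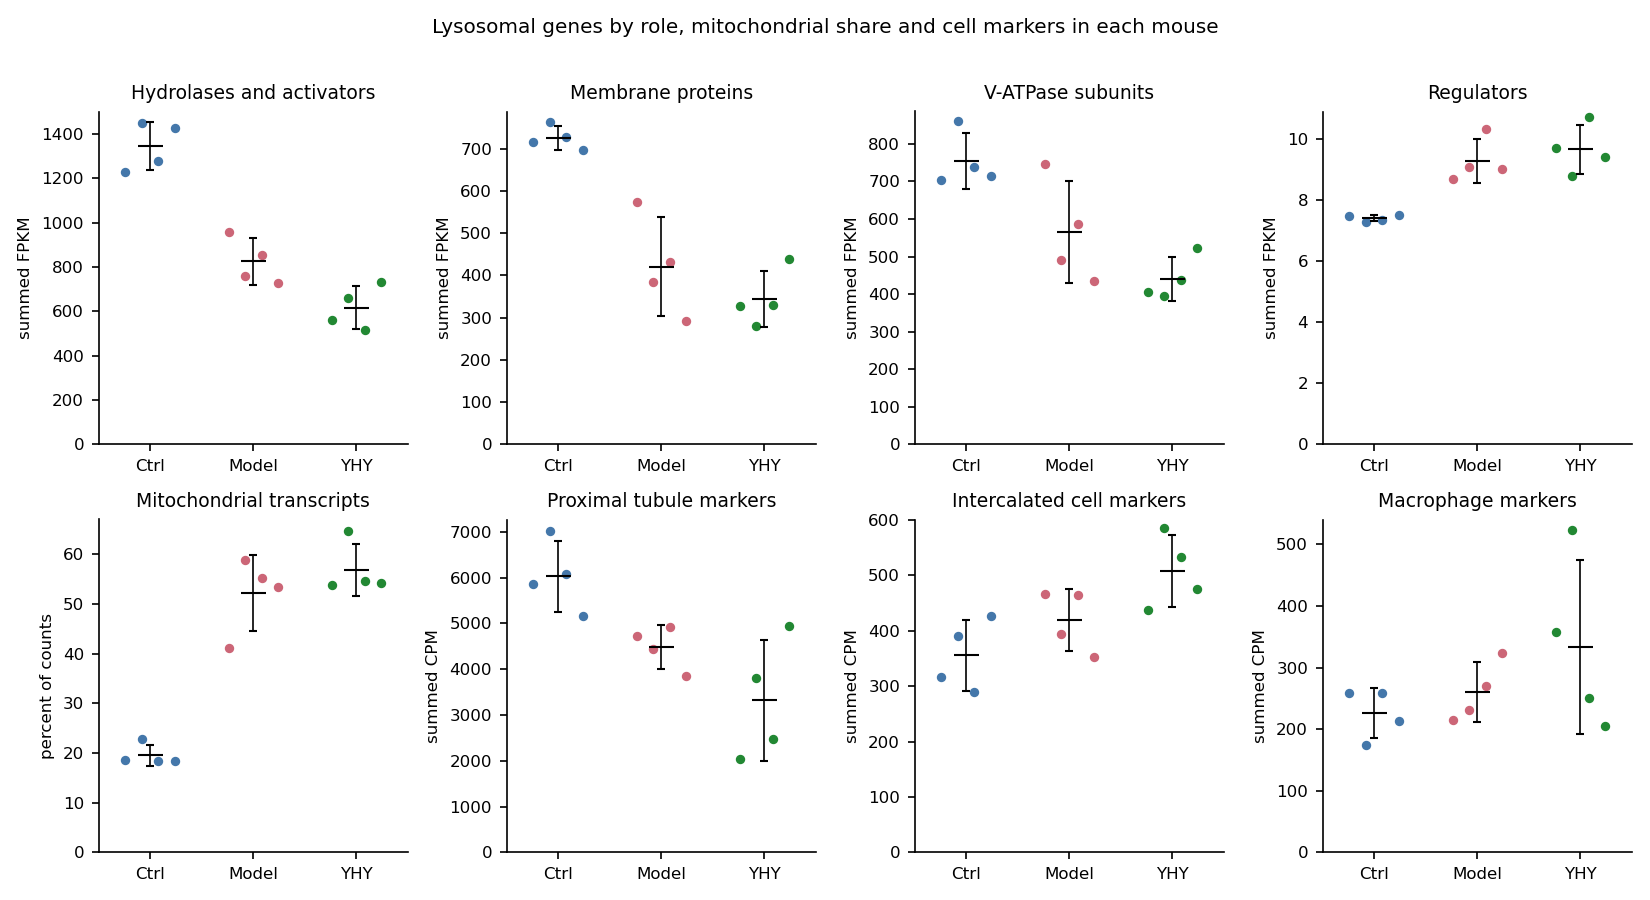
Summed level of the lysosomal genes of each role (FPKM, top row), and percent of counts from mitochondrial transcripts and summed CPM of cell markers (bottom row), in each of 4 mice per group; points are mice in order of replicate number, bars the mean and SD. The hydrolase and membrane sums of all Model and YHY mice lie below those of all Ctrl mice, while mitochondrial transcripts take 18.4 to 22.7% of counts in Ctrl and 41.2 to 64.6% in the db/db mice.

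A shift in library composition ran alongside. Transcripts of the mitochondrial genome took 18.6, 22.7, 18.4 and 18.5% of counts in Ctrl 1 to 4, 41.2, 58.9, 55.3 and 53.4% in Model 1 to 4 and 53.8, 64.6, 54.6 and 54.2% in YHY 1 to 4. The 95% Wilson intervals of these shares, which cover counting error only, were at most 0.0395 percentage points wide. Counts of the 47 genes made up 1.11 ± 0.0730% of all counts in the Ctrl group, 0.519 ± 0.150% in the Model group and 0.403 ± 0.0669% in the YHY group (SD, n = 4). Outside the mitochondrial transcripts they made up 1.38 ± 0.0810, 1.07 ± 0.137 and 0.931 ± 0.0691% of counts, so the order of the groups was the same on that base. Within Model, Model 1 had the lowest mitochondrial share and the highest sums of hydrolases, membrane proteins and pump subunits. The part of the mitochondrial share in the results below was not tested.

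Each gene was compared between groups by edgeR's quasi-likelihood test with Benjamini-Hochberg adjustment over 17431 genes, and "higher" or "lower" below means an adjusted P under 0.05 unless a level is meant; fold changes are on the log2 scale with their SE. In Model against Ctrl, which asks what differs in the diabetic mice, 22 of the 47 genes were lower, or 46.8%, against 18.5% of all genes tested. Another 3 were higher, or 6.38%, against 19.6% of all genes. The median fold change of the 47 genes was -0.51, against 0.04 over all genes tested. By role, 10 of 20 hydrolases, 3 of 8 membrane proteins, 8 of 16 pump subunits and 1 of 3 regulators were lower, and 1, 1, 0 and 1 were higher. For the pump subunits, edgeR gave 0 higher and 11 lower at an unadjusted P under 0.05, and DESeq2 gave 0 higher and 10 lower. At that unadjusted limit, edgeR gave 4266 higher and 3913 lower of the 17431 genes. Scaled by library size alone, 36 of the 47 genes were lower and 0 higher by edgeR (32.5% and 8.87% of all genes), where DESeq2 with its own size factors gave 26 lower and 3 higher (20.1% and 21.5% of all genes). In bulk tissue, fewer cells of a type and less RNA per cell cannot be told apart.

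The choice of scaling bears on this comparison because library-size scaling moved the median of all genes by -0.43, from 0.04 to -0.39. Relative to the median of all genes, the role medians were -0.74 for hydrolases, -0.44 for membrane proteins and -0.56 for pump subunits with TMM, and -0.72, -0.44 and -0.55 with library size alone. The median of the 3 regulators was 0.28 above that of all genes with TMM and 0.27 above it with library size, but its sign on the plain scale flipped, from 0.32 to -0.12. The 3 genes higher in Model, Hexa, Cln3 and Tfeb, were not called with library-size scaling. Tfeb stayed called without any 1 mouse. Hexa and Cln3 are described after their values were seen. Hexa was at 14.4, 12.4, 13.2 and 13.5 FPKM in Ctrl 1 to 4, 18.5, 15.0, 19.2 and 16.4 in Model 1 to 4 and 16.96, 12.6, 13.0 and 13.5 in YHY 1 to 4, and Cln3 at 2.23, 2.19, 2.57 and 3.21 FPKM in Ctrl 1 to 4, 3.42, 3.77, 3.31 and 3.61 in Model 1 to 4 and 3.60, 3.47, 3.91 and 2.93 in YHY 1 to 4. For both, all Model mice lay above all Ctrl mice and overlapped with YHY mice (fold changes 0.37 ± 0.137, adjusted P = 0.0446 and 0.47 ± 0.153, adjusted P = 0.0243). Both calls were also lost with no filter and with the 9 mice of the deposited group means. By the notes on the series, the group means in the authors' tables were taken over 3 mice per group, without Ctrl 2, Model 1 and YHY 4. The deposited counts hold 4 per group, and no reason is stated. This set of mice was tried as an alternative. The call of Hexa, the alpha chain of beta-hexosaminidase, was lost without any 1 of Ctrl 1, Ctrl 2, Ctrl 3, Ctrl 4, Model 1, Model 3 or Model 4, and that of Cln3, a membrane protein mutated in a childhood neuronal storage disease, without Ctrl 1, Ctrl 2, Ctrl 3, Model 1, Model 2 or Model 4. The count of higher genes was thus 1 without Ctrl 1, Ctrl 2, Ctrl 3, Model 1 or Model 4, and 2 without Ctrl 4, Model 2 or Model 3, where 14.1 to 18.1% of all genes were higher. With library-size scaling, Ctsd, Lgmn, Gm2a, Atp6v1f, Atp6v0a4 and Atp6v1b1, described below, also passed as lower, and Lgmn, Atp6v1f and Atp6v0a4 did so by DESeq2. The count of lower genes ran from 19 (40.4%) without Model 4, where 14.5% of all genes were lower, to 28 (59.6%) without Model 1, where 20.9% were.

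In YHY against Model, which asks what differs with the decoction, 6 of the 47 genes were lower (12.8%, against 7.62% of all genes) and 0 were higher (against 5.63%). At an unadjusted P under 0.05 edgeR gave 16 lower and 1 higher, against 2559 and 2430 of the 17431 genes. DESeq2 gave, after adjustment, 8 lower, Psap and Lamp1 among them, and 0 higher, against 9.68% and 8.23% of all genes. The 6 were the hydrolases and activators Ctsd, Glb1, Smpd1 and Gm2a and the pump subunits Atp6v1b2 and Atp6v1g1. With the limits of the study's methods, which ask for a fold change above 1.2 with unadjusted P below 0.05, 16 of the 47 genes were lower against 14.7% of all genes, and 1 was higher against 13.9%. The median fold change was -0.21 over the 47 genes and 0.02 over all genes tested. The number of lower genes moved with single mice, and so did that of all genes. It was 3 (6.38%) without Model 3 or without YHY 2, against 4.02% and 5.91% of all genes, and 10 (21.3%) without YHY 4, against 9.46%. The number of higher genes was 1, Mitf, without YHY 2, against 3.91% of all genes.

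YHY against Ctrl shares its mice with the other comparisons. There 32 of the 47 genes were lower (68.1%, against 24.2% of all genes) and 4 higher (8.51%, against 26.1%), with a median of -0.71 against 0.10 over all genes. The 4 were Cln3, Atp6v0a1, Tfeb and Mitf. With library-size scaling 39 genes were lower and 0 higher by edgeR (34.3% and 13.6% of all genes), and DESeq2 gave 33 and 4 (25.2% and 27.8%). The number of higher genes was 2 without Ctrl 3, against 20.9% of all genes.

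**Figure D2:**
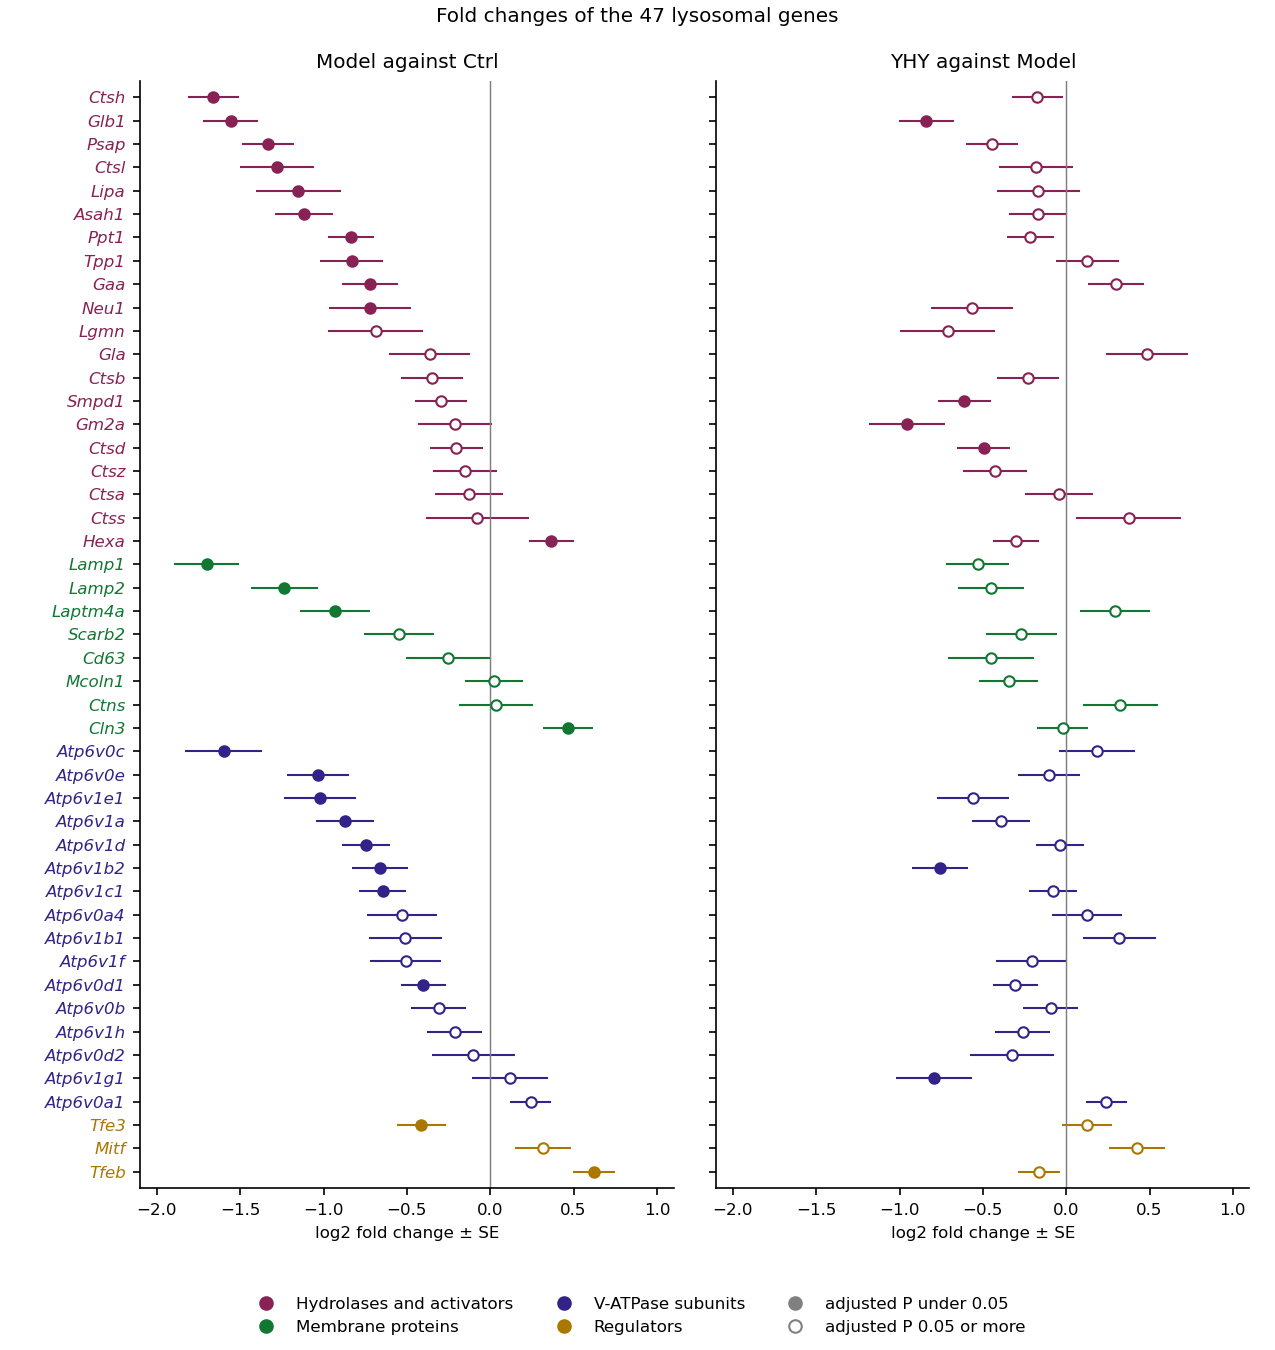
Fold change (log2) ± SE of each of the 47 genes in Model against Ctrl (left) and YHY against Model (right) with TMM scaling, coloured by role; filled points have an adjusted P under 0.05 and open points do not. On the left 22 filled points lie below 0 and 3 above it, which becomes 36 and 0 with library-size scaling; on the right 6 lie below 0 and 0 above it.

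Promoter sequences are shown because the regulators are known for a promoter element, which was looked for in each gene. TFEB, TFE3 and MITF bind an E-box whose core reads CACGTG, and the longer form TCACGTGA holds that core inside it; both read the same on either strand. In the RefSeq table of promoters for build GRCm38.p6, each window covers 250 bases before to 50 bases after a start, and 39 of the 47 genes matched it by symbol. Not in it were Ctsb, Ctsh, Asah1, Atp6v0d2, Atp6v1b2, Atp6v1c1, Atp6v1g1 and Atp6v1h. CACGTG was found in 14 of the 39 genes (35.9%) and in 2187 of the 27025 genes of the table (8.09%). Since 9 of the 39 genes have more than 1 window, windows were also counted. It lay in 14 of the 51 windows of these genes (27.5%), against 7.15% of all windows. TCACGTGA was found in 8 of the 39 genes (20.5%) and in 304 of the 27025 genes of the table. By window, 8 of 51 held the longer form (15.7%), against 0.974% of all windows. By role, CACGTG lay in 7 of 17 hydrolases and activators, 3 of 8 membrane proteins, 4 of 11 pump subunits and 0 of 3 regulators. The element is known for lysosomal genes, and these genes were chosen as lysosomal, so their shares are no independent test. The genes of the table were also not limited to those that passed the filter on low counts.

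The 250 bases before the start are printed 5′ to 3′ on the strand of the gene for 5 of these genes, with every CACGTG, or TCACGTGA where the longer form is present, in capitals. They are the membrane protein with the smallest P in Model against Ctrl (Lamp1), 2 hydrolases that were lower in YHY against Model (Ctsd and Glb1), a pump subunit that splits ATP and was lower in Model (Atp6v1a, chosen after its values were seen) and a gene higher in Model (Cln3). Not printed are Gm2a and Smpd1, also lower in YHY against Model, and Hexa and Tfeb, also higher in Model, whose windows hold no CACGTG. Lamp1 lies at chr8:13158911-13159160 on the plus strand, Ctsd at chr7:142387828-142388077 on the minus strand, Glb1 at chr9:114400828-114401077 on the plus strand, Atp6v1a at chr16:44139260-44139509 on the minus strand and Cln3 at chr7:126583237-126583486 on the minus strand.
Lamp1: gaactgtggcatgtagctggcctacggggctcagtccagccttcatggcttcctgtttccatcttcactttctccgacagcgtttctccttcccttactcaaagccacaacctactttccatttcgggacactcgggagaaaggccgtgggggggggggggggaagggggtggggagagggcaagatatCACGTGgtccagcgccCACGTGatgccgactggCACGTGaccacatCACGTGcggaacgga
Ctsd: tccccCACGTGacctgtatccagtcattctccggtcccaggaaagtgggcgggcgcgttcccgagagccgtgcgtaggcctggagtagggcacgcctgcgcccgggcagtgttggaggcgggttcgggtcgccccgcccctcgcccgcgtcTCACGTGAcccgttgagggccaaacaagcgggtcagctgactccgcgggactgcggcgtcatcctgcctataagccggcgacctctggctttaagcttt
Glb1: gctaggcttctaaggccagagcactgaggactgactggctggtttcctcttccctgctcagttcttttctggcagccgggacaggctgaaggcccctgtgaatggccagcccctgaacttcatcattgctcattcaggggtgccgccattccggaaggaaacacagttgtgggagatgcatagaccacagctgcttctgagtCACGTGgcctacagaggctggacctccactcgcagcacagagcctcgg
Atp6v1a: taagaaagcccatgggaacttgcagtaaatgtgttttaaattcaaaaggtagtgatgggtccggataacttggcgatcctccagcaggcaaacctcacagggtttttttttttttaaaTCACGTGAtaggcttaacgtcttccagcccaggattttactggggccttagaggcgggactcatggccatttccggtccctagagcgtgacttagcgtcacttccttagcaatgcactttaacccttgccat
Cln3: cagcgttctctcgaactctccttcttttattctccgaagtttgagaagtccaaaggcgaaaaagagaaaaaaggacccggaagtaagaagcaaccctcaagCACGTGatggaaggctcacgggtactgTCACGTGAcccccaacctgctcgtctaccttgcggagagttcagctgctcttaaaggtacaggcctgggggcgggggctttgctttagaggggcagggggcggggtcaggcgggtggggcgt
The Lamp1 stretch holds 4 cores within its last part, none of them in the longer form, while Ctsd and Cln3 each hold a core alone and a longer form. Glb1 holds 1 core, and Atp6v1a holds 1 longer form. Of the 14 genes with CACGTG, 7 were lower and 1 higher in Model against Ctrl (median fold change -0.54). The 25 genes without it had 11 lower and 2 higher (median -0.51). For comparison, the share over the 17431 genes was 18.5% for lower and 19.6% for higher. Split by the longer form, beside the same shares of all genes, 3 of the 8 genes with it were lower and 1 higher (median -0.28). The 31 without it had 15 lower and 2 higher (median -0.55). Promoters with and without either form occurred among the lower genes, and the presence of these letters is a description of the window, not of binding.

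Among the hydrolases and their activators, the most abundant in Ctrl was Psap, the precursor of the saposins that present sphingolipids to their hydrolases. Psap was at 400.5, 397, 379.7 and 521 FPKM in Ctrl 1 to 4, 155, 180.5, 174 and 163 in Model 1 to 4 and 124, 131, 118 and 123 in YHY 1 to 4. All Model mice lay below all Ctrl mice, and all YHY mice below all Model mice, while Ctrl 4 stood above the other Ctrl mice. Psap was lower in Model (-1.33 ± 0.156, adjusted P = 1.86e-05), and its difference between YHY and Model did not pass the test (-0.44 ± 0.154, adjusted P = 0.0682). Next came Ctsd, an aspartic protease, at 147, 192, 143 and 159 FPKM in Ctrl 1 to 4, 163, 115, 143 and 136 in Model 1 to 4 and 104, 105, 86.9 and 100.003 in YHY 1 to 4. Ctrl and Model overlapped, and all YHY mice lay below all Model mice. Accordingly Ctsd did not pass in Model against Ctrl (-0.20 ± 0.158, adjusted P = 0.328) and was lower in YHY against Model by a narrow margin (-0.49 ± 0.158, adjusted P = 0.0497). That call was lost without any 1 mouse other than Ctrl 2 or Model 2 and with 6 of the 8 other settings tried for single genes.

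Lgmn, the asparaginyl endopeptidase legumain, stood at 102, 142, 128 and 148 FPKM in Ctrl 1 to 4, 114, 66.9, 87.4 and 55.0 in Model 1 to 4 and 29.4, 49.9, 35.9 and 82.0 in YHY 1 to 4. Its levels spread widely, with Model 1 and YHY 4 the highest of their groups, and neighbouring groups overlapped. Neither comparison passed (-0.69 ± 0.284, adjusted P = 0.0678 in Model against Ctrl; -0.71 ± 0.285, adjusted P = 0.112 in YHY against Model). Leaving out Ctrl 1, Model 1, YHY 1 or YHY 4 brought the first below 0.05, as did DESeq2, library-size scaling, no filter, the 9 mice of the deposited group means and only the 8 mice compared. Leaving out YHY 4, no filter and the 9 mice did so for the second. Ctsh, a cysteine protease that trims peptides from their amino end, had the smallest P of its role in Model against Ctrl. Its level was 29.4, 26.1, 30.3 and 28.5 FPKM in Ctrl 1 to 4, 9.97, 8.59, 9.22 and 8.37 in Model 1 to 4 and 9.69, 7.10, 6.18 and 9.11 in YHY 1 to 4. Model and YHY mice overlapped each other at about the same level, far below Ctrl. Ctsh was lower in Model (-1.66 ± 0.154, adjusted P = 3.37e-06) and did not pass in YHY against Model (-0.17 ± 0.151, adjusted P = 0.494).

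Glb1, the beta-galactosidase, was lower in both comparisons. Its level was 30.2, 40.3, 33.3 and 23.3 FPKM in Ctrl 1 to 4, 11.5, 9.07, 11.1 and 11.6 in Model 1 to 4 and 5.76, 7.08, 5.79 and 5.54 in YHY 1 to 4. None of the 3 groups overlapped, with Ctrl highest and YHY lowest. Against Ctrl, Model had a fold change of -1.56 ± 0.166, adjusted P = 1.05e-05, and YHY one of -0.84 ± 0.166, adjusted P = 0.00495 against Model, and both calls held without any 1 mouse. Gm2a, an activator protein that lifts gangliosides out of membranes for beta-hexosaminidase, differed from Glb1 in that only YHY stood apart. Its level was 64.6, 84.0, 70.0 and 71.8 FPKM in Ctrl 1 to 4, 70.6, 53.3, 69.8 and 57.2 in Model 1 to 4 and 25.9, 38.8, 19.2 and 45.4 in YHY 1 to 4, with Ctrl and Model overlapping and every YHY mouse below every Model mouse. It did not pass in Model against Ctrl (-0.21 ± 0.224, adjusted P = 0.485) and had the largest fall of the 47 genes in YHY against Model (-0.96 ± 0.226, adjusted P = 0.0129). Smpd1, the acid sphingomyelinase, also called in YHY against Model and named after its values were seen, was at 19.9, 21.5, 20.9 and 26.6 FPKM in Ctrl 1 to 4, 15.5, 17.04, 19.8 and 20.2 in Model 1 to 4 and 13.9, 9.38, 13.3 and 10.9 in YHY 1 to 4. Every YHY mouse lay below every Model mouse (-0.61 ± 0.158, adjusted P = 0.0195), and the call was lost without Model 3, Model 4 or YHY 2, with library-size scaling and with only the 8 mice compared. The fold changes of the 20 hydrolases ran from -1.66 to 0.37 between Model and Ctrl and from -0.96 to 0.49 in YHY against Model.

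**Figure D3:**
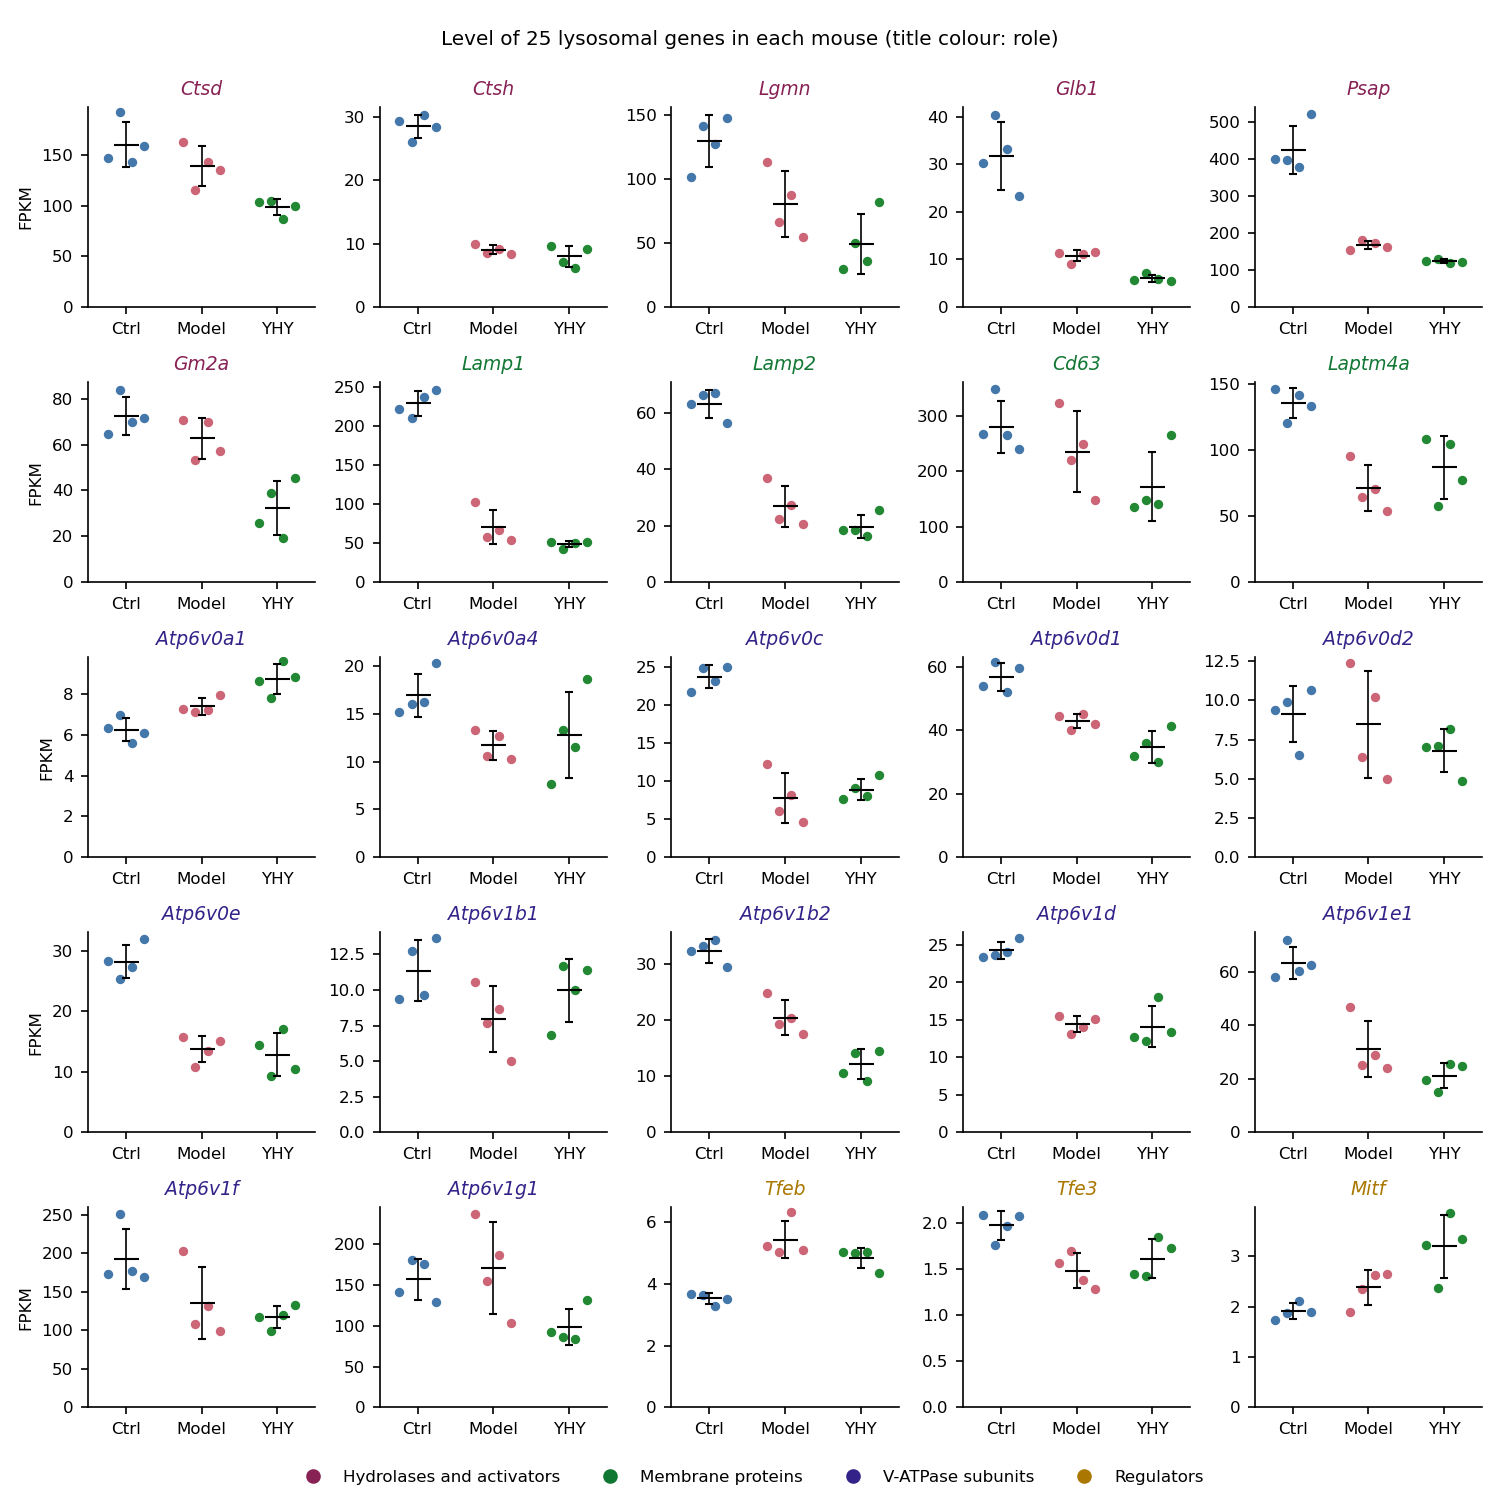
Level in FPKM of 25 of the genes described by mouse (Hexa, Cln3 and Smpd1 are not drawn), on linear axes from 0, with 4 mice per group in order of replicate number and bars for the mean and SD. Psap, Glb1 and Lamp1 show no overlap between any groups, whereas Gm2a overlaps between Ctrl and Model and lies at 19.2 to 45.4 in YHY.

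Of the membrane proteins, Cd63, a tetraspanin of late endosomes, lysosomes and secreted vesicles, was the most abundant in Ctrl, at 267, 349, 265 and 241 FPKM in Ctrl 1 to 4, 324, 221, 250.2 and 148 in Model 1 to 4 and 136, 149, 141 and 265 in YHY 1 to 4. The groups overlapped, and 1 mouse of each db/db group, Model 1 and YHY 4, stood above the rest of its group. It passed in neither comparison (-0.25 ± 0.256, adjusted P = 0.467 and -0.45 ± 0.257, adjusted P = 0.264), except in YHY against Model without YHY 4. Lamp1 and Lamp2 are the heavily glycosylated proteins that line the inner face of the lysosomal membrane, and Lamp2 also takes part in chaperone-mediated autophagy. Lamp1 was at 222, 211, 238 and 247 FPKM in Ctrl 1 to 4, 103, 58.1, 66.9 and 54.1 in Model 1 to 4 and 51.7, 42.6, 49.8 and 51.1 in YHY 1 to 4. All Model mice lay far below all Ctrl mice, and all YHY mice lay below all Model mice, with Model 1 the highest of the db/db mice. Lamp1 was lower in Model (-1.70 ± 0.194, adjusted P = 1.48e-05), the largest fall of the 47 genes there, and did not pass in YHY against Model (-0.53 ± 0.189, adjusted P = 0.0766).

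Lamp2 stood at 63.2, 66.6, 67.2 and 56.3 FPKM in Ctrl 1 to 4, 37.0, 22.4, 27.4 and 20.7 in Model 1 to 4 and 18.4, 18.3, 16.2 and 25.7 in YHY 1 to 4. The db/db mice all lay below the Ctrl mice and overlapped each other, with Model 1 the highest of them. It was lower in Model (-1.24 ± 0.201, adjusted P = 0.000225), and in YHY against Model (-0.45 ± 0.198, adjusted P = 0.147) it passed only without YHY 4. Laptm4a, a small protein that spans the membrane of late endosomes and lysosomes, was at 146, 120.5, 142 and 133 FPKM in Ctrl 1 to 4, 95.2, 64.3, 70.5 and 54.1 in Model 1 to 4 and 108, 57.2, 104 and 77.6 in YHY 1 to 4. Model and YHY overlapped, all below Ctrl, and YHY 1 and YHY 3 lay above every Model mouse. It was lower in Model (-0.93 ± 0.211, adjusted P = 0.00267) and did not pass in YHY against Model (0.29 ± 0.209, adjusted P = 0.388). The fold changes of the 8 membrane proteins ran from -1.70 to 0.47 in Model against Ctrl, and 0 passed in either direction in YHY against Model by edgeR, with 2 lower and 0 higher at an unadjusted P under 0.05 and 1 lower (Lamp1) and 0 higher by DESeq2.

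The V-ATPase has a V1 sector that splits ATP, with A and B subunits around a rotor of D and F and stalks of E and G, and a V0 sector in the membrane, with a ring of c subunits that carries protons past subunit a. Atp6v1f, subunit F of the rotor, was the most abundant pump gene in Ctrl, at 174, 251, 177 and 169 FPKM in Ctrl 1 to 4, 203, 108, 132 and 99.7 in Model 1 to 4 and 117, 99.2, 120.3 and 133 in YHY 1 to 4. Ctrl 2 and Model 1 stood above the other mice of their groups. Model overlapped with Ctrl and with YHY, while all YHY mice lay below all Ctrl mice. It passed in neither comparison (-0.51 ± 0.213, adjusted P = 0.0708 and -0.21 ± 0.213, adjusted P = 0.568), but did in Model against Ctrl without Model 1, by DESeq2, with library-size scaling, with no filter and with the 9 mice of the deposited group means. Atp6v1g1, a stalk subunit, was at 142, 181, 175 and 129 FPKM in Ctrl 1 to 4, 237, 155, 186 and 103 in Model 1 to 4 and 92.3, 85.9, 83.2 and 131 in YHY 1 to 4. Its Model mice spread over more than the Ctrl range, and YHY 4 overlapped with Model. It did not pass in Model against Ctrl (0.12 ± 0.227, adjusted P = 0.709), where its sign flipped to negative with library-size scaling. In YHY against Model it was lower (-0.79 ± 0.229, adjusted P = 0.032), a call lost without Model 1, Model 3, YHY 1, YHY 2 or YHY 3, with library-size scaling, with only the 8 mice compared and with replicate number as a block.

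Atp6v1e1, the other stalk subunit described, was at 58.0, 71.9, 60.3 and 62.6 FPKM in Ctrl 1 to 4, 46.7, 25.3, 28.7 and 23.9 in Model 1 to 4 and 19.4, 15.2, 25.4 and 24.7 in YHY 1 to 4. All db/db mice lay below all Ctrl mice, with Model 1 the highest of them. It was lower in Model (-1.02 ± 0.216, adjusted P = 0.00168) and did not pass in YHY against Model (-0.56 ± 0.215, adjusted P = 0.0995). Atp6v0c, the subunit of the proton-carrying ring, fell furthest of the pump genes in Model. Its level was 21.8, 24.9, 23.2 and 25.0 FPKM in Ctrl 1 to 4, 12.3, 6.07, 8.23 and 4.69 in Model 1 to 4 and 7.70, 9.10, 8.04 and 10.8 in YHY 1 to 4. All db/db mice lay below all Ctrl mice, and Model 1 was the highest of them. Against Ctrl, Model had a fold change of -1.60 ± 0.23, adjusted P = 8.79e-05, and YHY one of 0.19 ± 0.226, adjusted P = 0.641 against Model, of which only the first passed. The gene is uncertain because the pseudogene Atp6v0c-ps2 drew almost as many reads, a mean of 1314 counts against 1526.

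Atp6v0e, a small V0 subunit, was at 28.3, 25.3, 27.4 and 32.0 FPKM in Ctrl 1 to 4, 15.7, 10.9, 13.4 and 15.1 in Model 1 to 4 and 14.4, 9.32, 17.1 and 10.51 in YHY 1 to 4, with all db/db mice below Ctrl and the db/db groups overlapping. It was lower in Model (-1.03 ± 0.187, adjusted P = 0.000515) and not different past the test in YHY against Model (-0.10 ± 0.186, adjusted P = 0.772). Atp6v1d, the other rotor subunit, was at 23.4, 23.6, 24.0 and 25.9 FPKM in Ctrl 1 to 4, 15.4, 13.0, 14.1 and 15.2 in Model 1 to 4 and 12.7, 12.1, 18.1 and 13.4 in YHY 1 to 4. Again all db/db mice lay below all Ctrl mice (-0.75 ± 0.145, adjusted P = 0.000855), and Model and YHY overlapped (-0.04 ± 0.144, adjusted P = 0.906). Over the 16 pump subunits the fold changes ran from -1.60 to 0.24 between Model and Ctrl and from -0.79 to 0.32 in YHY against Model.

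For 3 pump subunits the list holds both an isoform known for intercalated cells and its widespread counterpart. Subunit a is encoded by Atp6v0a4, the intercalated form, at 15.2, 15.98, 16.2 and 20.3 FPKM in Ctrl 1 to 4, 13.3, 10.6, 12.7 and 10.3 in Model 1 to 4 and 7.68, 13.3, 11.6 and 18.6 in YHY 1 to 4, and by Atp6v0a1, at 6.33, 6.96, 5.59 and 6.09 FPKM in Ctrl 1 to 4, 7.29, 7.11, 7.20 and 7.98 in Model 1 to 4 and 8.66, 7.82, 9.61 and 8.84 in YHY 1 to 4. All Model mice lay below all Ctrl mice for the former and above them for the latter. Neither gene passed in Model against Ctrl (-0.53 ± 0.211, adjusted P = 0.0576 for Atp6v0a4; 0.24 ± 0.123, adjusted P = 0.13 for Atp6v0a1), although Atp6v0a4 did without Ctrl 1, Model 1, YHY 1 or YHY 4, by DESeq2, with library-size scaling, with no filter, with the 9 mice and with only the 8 mice, and Atp6v0a1 changed sign with library-size scaling. Neither passed in YHY against Model (0.13 ± 0.211, adjusted P = 0.752 and 0.24 ± 0.123, adjusted P = 0.212), with both groups overlapping.

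Subunit d, which joins the ring to the rotor, comes from Atp6v0d2, at 9.39, 9.89, 6.55 and 10.6 FPKM in Ctrl 1 to 4, 12.4, 6.37, 10.2 and 4.99 in Model 1 to 4 and 7.05, 7.08, 8.15 and 4.89 in YHY 1 to 4, and from the widespread Atp6v0d1, at 54.0, 61.5, 52.2 and 59.5 FPKM in Ctrl 1 to 4, 44.5, 40.2, 45.0 and 42.1 in Model 1 to 4 and 31.8, 35.9, 30.1 and 41.3 in YHY 1 to 4. The former overlapped between all groups, whereas for the latter all db/db mice lay below all Ctrl mice. Atp6v0d1 was lower in Model (-0.40 ± 0.135, adjusted P = 0.0272; lost without Ctrl 2, Model 2 or Model 4 and with no filter), and Atp6v0d2 did not pass (-0.10 ± 0.25, adjusted P = 0.782). In YHY against Model neither passed (-0.31 ± 0.135, adjusted P = 0.146 for Atp6v0d1; -0.32 ± 0.253, adjusted P = 0.433 for Atp6v0d2). Subunit B comes from Atp6v1b1, at 9.36, 12.8, 9.68 and 13.6 FPKM in Ctrl 1 to 4, 10.53, 7.70, 8.68 and 4.997 in Model 1 to 4 and 6.80, 11.7, 9.98 and 11.4 in YHY 1 to 4, and from the widespread Atp6v1b2, at 32.3, 33.3, 34.3 and 29.5 FPKM in Ctrl 1 to 4, 24.8, 19.3, 20.3 and 17.5 in Model 1 to 4 and 10.6, 14.2, 9.13 and 14.6 in YHY 1 to 4. The groups of Atp6v1b1 overlapped, while those of Atp6v1b2 stood apart in the order Ctrl, Model, YHY. Atp6v1b2 was lower in Model (-0.66 ± 0.169, adjusted P = 0.00603) and again in YHY against Model (-0.76 ± 0.169, adjusted P = 0.00972), and both calls held without any 1 mouse, while Atp6v1b1 passed in neither (-0.51 ± 0.22, adjusted P = 0.0798 and 0.32 ± 0.22, adjusted P = 0.366). The first of these passed without Model 1, with library-size scaling, with no filter, with the 9 mice and with only the 8 mice compared.

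The ratio of the paired genes within a mouse does not depend on how libraries are scaled. As log2 ratios of counts per length, Atp6v0a4 to Atp6v0a1 was 1.26, 1.199, 1.53 and 1.74 in Ctrl 1 to 4, 0.87, 0.58, 0.81 and 0.36 in Model 1 to 4 and -0.17, 0.76, 0.27 and 1.07 in YHY 1 to 4. All Model mice lay below all Ctrl mice, and YHY overlapped with Model. The difference between Model and Ctrl was -0.78 ± 0.170 SE, with P = 0.0286 in a two-sided exact permutation test, the smallest that 4 against 4 mice can give, and 0.0857 after Benjamini-Hochberg adjustment over 6 such tests. For Atp6v1b1 to Atp6v1b2 the log2 ratio was -1.79, -1.38, -1.83 and -1.11 in Ctrl 1 to 4, -1.23, -1.33, -1.23 and -1.81 in Model 1 to 4 and -0.64, -0.28, 0.13 and -0.35 in YHY 1 to 4. Ctrl and Model overlapped, and every YHY mouse lay above every Model mouse. That difference was 1.11 ± 0.210 SE, again at the smallest exact permutation P of 0.0286 and 0.0857 after adjustment. Over 6 tests an adjusted P under 0.05 needs at least 4 of them at that smallest P, so these differences could not have reached it alone. Atp6v0d2 to Atp6v0d1 was -2.52, -2.63, -2.99 and -2.48 in Ctrl 1 to 4, -1.85, -2.66, -2.14 and -3.08 in Model 1 to 4 and -2.17, -2.34, -1.88 and -3.07 in YHY 1 to 4, with all groups overlapping. The other 4 differences ran from -0.17 to 0.23, with exact permutation P from 0.514 to 0.971 and adjusted values from 0.754 to 0.971.

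**Figure D4:**
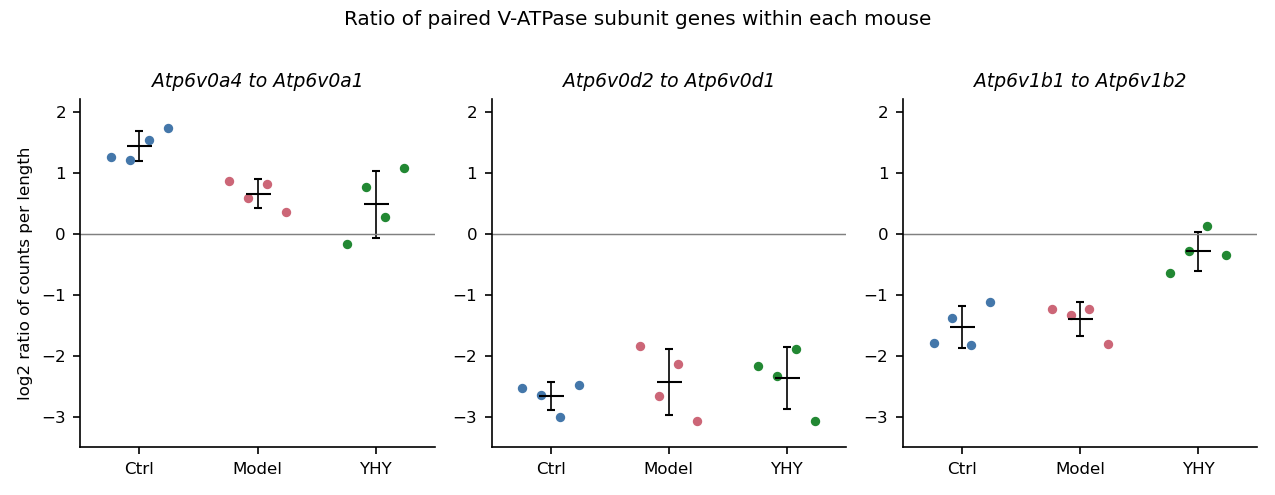
Ratio of 3 pairs of V-ATPase genes in each mouse, as log2 of counts per length (the intercalated form over its widespread counterpart), with 4 mice per group in order of replicate number and bars for the mean and SD. The Atp6v0a4 ratio reaches at most 0.87 in Model, below every Ctrl mouse, and the Atp6v1b1 ratio lies at -1.81 to -1.23 in Model and -0.64 to 0.13 in YHY.

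Of the 3 regulators, Tfeb was at 3.68, 3.65, 3.28 and 3.53 FPKM in Ctrl 1 to 4, 5.24, 5.05, 6.33 and 5.11 in Model 1 to 4 and 5.04, 4.99, 5.02 and 4.37 in YHY 1 to 4. Every Model mouse lay above every Ctrl mouse, and every YHY mouse lay above every Ctrl mouse and below every Model mouse. It was higher in Model (0.62 ± 0.126, adjusted P = 0.00126), and not with library-size scaling, and it did not pass in YHY against Model (-0.16 ± 0.126, adjusted P = 0.431). Tfe3, its X-linked relative, was at 2.08, 1.76, 1.96 and 2.08 FPKM in Ctrl 1 to 4, 1.57, 1.70, 1.38 and 1.28 in Model 1 to 4 and 1.45, 1.43, 1.85 and 1.73 in YHY 1 to 4. Every Model mouse lay below every Ctrl mouse, the opposite side from Tfeb, and Model and YHY overlapped. It was lower in Model (-0.41 ± 0.148, adjusted P = 0.0375), a call lost without Ctrl 1, Ctrl 3, Ctrl 4, Model 3 or Model 4, with either other filter on low counts and with replicate number as a block, and did not pass in YHY against Model (0.12 ± 0.149, adjusted P = 0.631). Mitf, known as a regulator of pigment cells and osteoclasts, was at 1.73, 1.88, 2.12 and 1.90 FPKM in Ctrl 1 to 4, 1.90, 2.35, 2.64 and 2.65 in Model 1 to 4 and 3.23, 2.36, 3.87 and 3.34 in YHY 1 to 4. Groups next to each other overlapped, while all YHY mice lay above all Ctrl mice. It passed in neither Model against Ctrl (0.32 ± 0.169, adjusted P = 0.15), where its sign flipped with library-size scaling, nor YHY against Model (0.43 ± 0.169, adjusted P = 0.106), except without YHY 2. These are mRNA levels, and where the proteins were located was not measured here.

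Other genes of the pathway, from lists beyond the 47, were read in the same fit. Their counts stand beside 18.5% lower and 19.6% higher over all genes in Model against Ctrl, and 7.62% and 5.63% in YHY against Model. Of 35 other hydrolases and proteins that assist or accompany them, such as Sumf1, Npc2 and Hgsnat, which are no hydrolases and are named from the list and not for their values, 16 were lower and 2 higher in Model against Ctrl (45.7% and 5.71%). Galns, a sulfatase, led the lower ones by P (-1.54 ± 0.170, adjusted P = 1.21e-05) and Ctsk, a collagen-cleaving protease, the higher ones (1.36 ± 0.327, adjusted P = 0.00409). The 23 other membrane proteins tested had calls both ways (30.4% lower and 34.8% higher), with 7 lower, led by Ostm1, the partner of a chloride transporter (-1.62 ± 0.203, adjusted P = 3.07e-05), and 8 higher, led by the calcium channel Tpcn1 (0.86 ± 0.179, adjusted P = 0.00152). Of 11 further pump subunits and assembly factors tested, 36.4% were lower and 18.2% higher: 4 were lower, led by the assembly factor Vma21 (-1.11 ± 0.207, adjusted P = 0.000639), and 2 higher, led by the osteoclast a subunit Tcirg1 (1.46 ± 0.238, adjusted P = 0.00023).

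Of 7 genes listed for sorting receptors, the enzymes that tag hydrolases and the endocytic receptor megalin (Lrp2), 3 (42.9%) were lower and 0 higher by edgeR in Model against Ctrl. They were led by the mannose 6-phosphate receptor M6pr (-0.89 ± 0.152, adjusted P = 0.000347). The others were Igf2r and Lrp2, a proximal tubule marker that had the largest fall of the 3 (-1.68 ± 0.295, adjusted P = 0.000399). At an unadjusted P under 0.05 the list had 4 lower and 0 higher, and by DESeq2 4 lower and 0 higher. A list of 19 genes around the control of TFEB also held genes not known as its controllers, such as Tfec, Zkscan3 and Ppargc1a. Of the 19, 8 (42.1%) were lower, led by the Ragulator subunit Lamtor5 (-1.51 ± 0.219, adjusted P = 9.31e-05). Another 1 (5.26%) was higher, the calcineurin subunit Ppp3ca (0.56 ± 0.155, adjusted P = 0.00978). Lower and higher counts in YHY against Model were 4 and 1 of the 35 hydrolases and their companions, 3 and 2 of the 23 membrane proteins, 4 and 0 of the 11 pump genes, 1 and 0 of the 7 sorting genes and 5 and 1 of the 19 genes listed around TFEB. For the pump genes, 4 were lower and 0 higher both at an unadjusted P under 0.05 and by DESeq2, and for the sorting genes 1 lower and 1 higher in both. With library-size scaling, lower and higher counts in Model against Ctrl were 22 and 1, 11 and 2, 6 and 2, 5 and 0, and 12 and 0 in the same order of lists, against 32.5% and 8.87% of all genes, where DESeq2 gave 0 higher only for the sorting genes. The same scaling gave, in YHY against Model, 2 and 0, 3 and 0, 2 and 0, 0 and 0, and 1 and 1 by edgeR, against 3.94% lower and 2.82% higher over all genes, where DESeq2 gave 4 and 1, 4 and 2, 4 and 0, 1 and 1, and 5 and 3. The 3 intercalated pump isoforms had 0 calls in either direction by edgeR with TMM in both comparisons. At an unadjusted P under 0.05, 2 were lower between Model and Ctrl and 0 between YHY and Model, and by DESeq2 1 and 0. With library-size scaling, edgeR gave 2 and 0 lower. In each of these settings 0 were higher. Of the 3 counterparts of these isoforms, edgeR with TMM gave 2 lower in Model and 1 in YHY against Model.

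Markers of the cells known for these genes were read beside them. The marker lists are not separate from the lists above. Lrp2 (proximal tubule) is also among the sorting genes, Atp6v1g3 (intercalated cells) among the further pump genes and Cd68 (macrophages) among the other membrane proteins. Their calls are counted in both lists. Counts of called markers stand beside the same shares of all genes, 18.5% lower and 19.6% higher between Model and Ctrl and 7.62% and 5.63% in YHY against Model. The 10 proximal tubule markers, led in abundance by Slc34a1, summed in CPM to 5851, 7017, 6084 and 5152 in Ctrl 1 to 4, 4715, 4450.2, 4931 and 3843 in Model 1 to 4 and 2045, 3809.9, 2479 and 4954 in YHY 1 to 4. All Ctrl mice lay above all Model and YHY mice, and YHY 1 and YHY 3 were lowest. In Model against Ctrl 4 of the 10 were lower and 1 higher, and 2 were lower and 0 higher in YHY against Model, with 5 lower and 0 higher both at an unadjusted P under 0.05 and by DESeq2. The smallest P in Model were those of Slc7a13 among the lower ones (-2.33 ± 0.286, adjusted P = 2.68e-05) and of Slc22a8, the higher one (1.13 ± 0.354, adjusted P = 0.0195). The 11 intercalated cell markers, led by Rhcg, summed in CPM to 317, 391, 289 and 427 in Ctrl 1 to 4, 466, 393, 464 and 353 in Model 1 to 4 and 437, 586, 534 and 476 in YHY 1 to 4, with YHY mice all above all Ctrl mice. Of these 3 were higher in Model, with the smallest P for Insrr (0.97 ± 0.215, adjusted P = 0.00231), and 1 lower, Foxi1 (-0.83 ± 0.312, adjusted P = 0.0461), and 2 higher and 1 lower, Atp6v1g3, in YHY against Model. The 13 macrophage markers, led by Lyz2, summed in CPM to 259, 174, 259 and 213 in Ctrl 1 to 4, 216, 232, 271 and 324 in Model 1 to 4 and 357, 523, 251 and 205 in YHY 1 to 4, overlapping between all groups. Against Ctrl, Model had 1 higher (Cd68, 1.05 ± 0.276, adjusted P = 0.0073) and 3 lower (7.69% and 23.1%), with the smallest P for C1qc (-1.62 ± 0.288, adjusted P = 0.000441). Between YHY and Model 0 passed by edgeR, with 3 higher and 0 lower at an unadjusted P under 0.05 and 0 by DESeq2.

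The other marker lists were shorter, so single calls make large shares of them. In Model against Ctrl, 3 of 5 tested principal cell markers, led in abundance by Aqp2, were lower and 0 higher by edgeR (0 higher also at an unadjusted P under 0.05 and by DESeq2). Of 5 markers of the loop and distal tubule, led by Slc12a1, 2 were lower and 1 higher. Of 5 podocyte markers, led by Podxl, 2 were higher, as were 2 of 6 endothelial markers, led by Emcn, and 3 of 6 stromal markers, led by Acta2, with 0 lower by edgeR, at an unadjusted P under 0.05 and by DESeq2. Of 5 tested lymphocyte markers, led by Cd79b, 0 passed by edgeR, with 1 lower at an unadjusted P under 0.05 and 1 lower by DESeq2. Of these, in YHY against Model, 1 loop and distal marker was lower, and in the other 5 lists edgeR gave 0 calls, against 7 genes at an unadjusted P under 0.05 and 2 by DESeq2. The smallest P of each direction in Model were those of Hsd11b2 in principal cells (-1.54 ± 0.263, adjusted P = 0.000329), Umod, lower (-2.86 ± 0.385, adjusted P = 5.43e-05), and Slc12a3, higher (1.33 ± 0.219, adjusted P = 0.000256), in the loop and distal tubule, Nphs1 in podocytes (1.86 ± 0.250, adjusted P = 5.44e-05), Flt1 in endothelium (0.67 ± 0.114, adjusted P = 0.00031) and Des in stroma (0.88 ± 0.146, adjusted P = 0.000266). Mean sums of these lists in Ctrl, Model and YHY were 939, 417 and 415 CPM for principal cells, 1930.2, 1331 and 1645 for loop and distal tubule, 129, 154 and 107 for podocytes, 204, 245 and 253 for endothelium, 178, 220.1 and 262 for stroma and 3.99, 1.74 and 2.55 for lymphocytes. With library-size scaling, lower and higher counts in Model against Ctrl were 5 and 0 for proximal tubule, 2 and 2 for intercalated cells, 4 and 0 for macrophages, 4 and 0 for principal cells, 2 and 1 for loop and distal tubule, 1 and 1 for podocytes, 0 and 0 for endothelium, 1 and 0 for stroma and 1 and 0 for lymphocytes by edgeR, against 32.5% and 8.87% of all genes. The counts of higher podocyte, endothelial and stromal markers thus rest on the scaling. DESeq2 gave 5 and 1, 1 and 3, 4 and 2, 2 and 0, 2 and 1, 0 and 2, 0 and 2, 0 and 3, and 1 and 0 in that order, against 20.1% and 21.5%. No marker of any list was at 0 in all mice. The part of cell composition in the results on lysosomal genes was not tested.

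Some members share their locus with another gene, and the strand setting of the counting was not stated. Reads of an overlapping gene on the other strand came to 303% of those of Ppt1 (Cap1), 49.3% of those of Atp6v1b2 (Slc18a1), 22.5% of those of Ctsz (Nelfcd) and 11.6% of those of Lamp1 (Grtp1), with 6.88% for Cln3 (Apobr) and 5.85% for Ctsb (Fdft1). For Atp6v0a4 a gene on the same strand came to 52.1% and Tmem213 on the other strand to 43.4%. The pseudogene Cd63-ps drew a mean of 1303 counts beside 25854 for Cd63. These members are uncertain for that reason. The percentages compare counts of whole genes, and reads within a shared stretch were not counted apart, so they do not give the extent of the uncertainty.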

How the data were processed

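Kidney mRNA of 12 mice in 3 groups of 4 was read from the deposited table of 57490 genes. Per the submitters' processing notes, the authors checked reads with FastQC 0.11.9, trimmed them with Trimmomatic 0.39, aligned them with HISAT2 2.2.1 and SAMtools 1.12 to GRCm39, and made the count values with featureCounts 2.0.1, followed by DESeq2 1.34.0 in R 4.1.2. The count columns were tested. The deposited signal values in 6 per-sample columns served only to check which mouse each count column is, and the deposited comparison columns, which hold fold changes and p-values, were not used.

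In R 4.3.3, edgeR 4.0.16 fitted all 3 groups at once by quasi-likelihood, with TMM scaling and filterByExpr (17431 genes tested), two-sided, with P adjusted across these genes by the Benjamini-Hochberg method and calls at an adjusted P under 0.05. Ratios of isoforms, with 0.5 counts added, were compared by two-sided exact permutation. Python 3.11.15 with numpy 2.4.6, pandas 2.3.3 and matplotlib 3.10.9 served for ratios, motifs and plots. The alternatives were DESeq2 1.42.0, other scalings, filters and sets of mice. The test was tried on simulated data.

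Values by mouse are given for the 3 genes of each role with the highest level in Ctrl, the 3 with the smallest P in Model against Ctrl and the 2 in YHY against Model, the isoform pairs and the regulators. Other lists give the called gene with the smallest P in each direction. The members and lists were chosen with earlier results of these data known. Identity between the proteins of paralogs was not run, for want of protein sequences.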

Additional observations from a re-analysis of the deposited data

Results flagged for a closer look

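Among 138 groups of 4 mice examined, 11 held a mouse whose gap to its nearest neighbour exceeded the 95% limit of Dixon's test, where chance gives about 1 in 20 groups. For levels of genes, these were Glb1 in YHY 2 (7.08 FPKM, highest of its group), Psap in Ctrl 4 (521 FPKM, highest), Cd63 in YHY 4 (265 FPKM, highest), Atp6v1f in Ctrl 2 (251 FPKM, highest), Tfeb in Model 3 (6.33 FPKM, highest) and Tfeb in YHY 4 (4.37 FPKM, lowest). For libraries, Ctrl 2 had the lowest total of its group (29632718 counts) and the highest mitochondrial share (22.7%), and YHY 2 had the highest mitochondrial share of its group (64.6%). The 47 genes took the highest share of counts of its group in Ctrl 4 (1.22%), and outside mitochondrial transcripts in YHY 4 (1.03%).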

How the results depend on the processing

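Genes described by mouse (27 for Model and Ctrl, 26 for YHY and Model, counting Hexa and Cln3 in the first and Smpd1 in the second) kept their direction and side of the threshold in 181 of 216 gene-by-setting values in Model against Ctrl and 187 of 208 in YHY against Model. Of the rest, 10 and 11 no longer passed, 20 and 4 newly passed, and 5 and 6 changed sign. The settings were DESeq2, library size alone, TMM without mitochondrial genes, no filter, at least 10 counts in all 12 mice, the 9 mice of the deposited group means, only the 8 mice compared and replicate number as a block. The cause of these changes was not tested.

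Signs changed in Model against Ctrl with library size alone for Atp6v1g1 (-0.28), Mitf (-0.12), Atp6v0a1 (-0.18) and Hexa (-0.063), and with the 9 mice for Atp6v1g1 (-0.062). In YHY against Model they changed with the 9 mice for Atp6v1f (0.0053), Atp6v0e (0.073), Atp6v1d (0.037), Atp6v0a4 (-0.037) and Atp6v0d2 (0.066), and with only the 8 mice for Atp6v1d (0.013). Leaving out 1 mouse at a time, fold changes ran in Model against Ctrl from -0.14 to 0.30 for Atp6v1g1 and -0.40 to 0.083 for Atp6v0d2, and in YHY against Model from -0.33 to 0.056 for Atp6v1f, -0.28 to 0.021 for Atp6v0e, -0.18 to 0.027 for Atp6v1d and -0.12 to 0.30 for Atp6v0a4.

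By edgeR, the count of genes higher in Model against Ctrl was 0 with library size alone, 1 with no filter and 1 with the 9 mice. The shares of all genes higher were 8.87, 10.7 and 18.9% there, against 19.6% in the main fit. With TMM, 3 were higher at an unadjusted P under 0.05, against 4266 of all 17431 genes. DESeq2 gave 3, against 21.5% of all genes. The count of lower genes was 36 with library size alone by edgeR, and that of all genes rose as well, from 18.5 to 32.5%. In YHY against Model, 3 genes were lower with library size alone and 3 with only the 8 mice, where the share of all genes also fell, from 7.62% to 3.94 and 4.2%, and the study's limits gave 16 lower and 1 higher. In YHY against Ctrl, 0 were higher with library size alone and 2 with no filter, by edgeR. The share of all genes higher also fell there, from 26.1% to 13.6 and 14.7%. Role medians in Model against Ctrl moved with library size alone to -1.11 for hydrolases, -0.84 for membrane proteins, -0.95 for pump subunits and -0.12 for regulators.

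Leaving out 1 mouse at a time, 1 to 3 genes were higher and 19 to 28 lower in Model against Ctrl. The shares of all genes there were 14.1 to 20.3% and 14.4 to 20.9%. In YHY against Model, 0 to 1 were higher and 3 to 10 lower, against 2.32 to 5.89% and 4.02 to 9.46% of all genes. In YHY against Ctrl, 2 to 5 were higher and 26 to 34 lower, against 20.9 to 25.3% and 22.3 to 25.7%. Role medians ran in Model against Ctrl from -0.93 to -0.58, -0.49 to -0.26, -0.76 to -0.43 and 0.22 to 0.36, and in YHY against Model from -0.33 to -0.14, -0.37 to -0.21, -0.25 to -0.05 and 0.05 to 0.19, in the order of roles above. Differences of ratios ran for Atp6v0a4 to Atp6v0a1 from -0.85 to -0.68 and -0.37 to 0.045, for Atp6v0d2 to Atp6v0d1 from 0.04 to 0.44 and -0.15 to 0.30, and for Atp6v1b1 to Atp6v1b2 from 0.03 to 0.27 and 0.97 to 1.23. With the 9 mice, or with same-numbered mice as blocks, the smallest exact permutation P possible for a ratio is 0.1 and 0.125. With the part of each promoter window before the start only, CACGTG lay in 12 of the 39 genes and in 1854 of all genes, and TCACGTGA in 6 and 245. Same-numbered mice were not paired: over 12 pairs, r across genes ran from -0.173 to 0.125, and genes are not independent replicates.

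With 4 mice per group, whole tissue and no db/m mice given YHY, differences between cell numbers and RNA per cell, and between diabetes and obesity, cannot be told apart. Which of the study's YHY dose groups was sequenced is not stated. Counts of the 47 genes were at least 69 in every mouse, so depth was not the limit for their detection.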
